A study of Arabidopsis thaliana with 30 samples.

Results

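The class III peroxidases of Arabidopsis thaliana are described here through 60 loci of the PRX family, chosen as the rows of the deposited gene tables whose identifier is on a fixed list of the family. All 60 were found, among 33602 genes in each table. The list does not hold the whole family: 13 further class III loci in the same tables were kept apart and are treated at the end. RNA was measured in dark-grown seedlings that were 5 days old, of which 1 day was spent in light and 4 days in darkness. Seedlings were placed for 2 h in liquid medium with the auxin indole-3-acetic acid (IAA) at 10 µM, 10 µM abscisic acid (ABA) or ethanol as the mock treatment, and root and shoot were then collected apart. Every library therefore comes from seedlings that had been moved into liquid under green light, mock controls included. The 10 groups were aba2-3 with IAA, aba2-3 with mock, Col-O with IAA, Col-O with ABA and Col-O with mock, each as root and as shoot, with 3 libraries per group. Col-O, as the labels spell it, is the wild type. aba2-3 carries a mutant allele of ABA2, which encodes a dehydrogenase of ABA biosynthesis, and it was not given ABA.

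Class III peroxidases are secreted heme enzymes of plants. In the cell wall they oxidise phenolic compounds with hydrogen peroxide, which joins monolignols into lignin and cross-links wall proteins and polysaccharides, and they can also produce reactive oxygen species that loosen the wall. The family is large and has arisen in part through tandem duplication, so close copies often lie side by side. In roots, different members are known to act in root hair growth, in the lignin of the Casparian strip of the endodermis, and downstream of UPBEAT1 (UPB1), a bHLH factor that represses peroxidase genes where cells pass from division to elongation. NADPH oxidases of the RBOH family supply superoxide, from which the hydrogen peroxide used by these enzymes arises.

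The libraries held 3.9 to 99.3 M counts (M, counts in units of 10 to the sixth power), with a median of 23.1 M, and the smallest was aba2-3 IAA shoot 3. Levels are given as CPM, the count scaled to a common library total with TMM normalisation, or as RPKM, the same value per kilobase of exon, where loci are compared with each other. The organ labels were checked with marker genes, whose levels are given as count over library total, without TMM. The summed level of 6 shoot markers was 193 to 6041 CPM in the 15 root libraries and 20144 to 60277 CPM in the 15 shoot libraries. None of the 6 was at 0 in any library. Of 6 root markers, 4 were higher and 1, PYK10, was lower in Col-O mock roots than in Col-O mock shoots. WOX5, a gene of the root stem cell niche, had 18.5 to 83.0 CPM in roots and 0.58 to 7.58 CPM in shoots. RNA of the other organ was measured with 338 shoot and 40 root signature genes, chosen from the aba2-3 IAA groups of these data. Their level is given as a percent of the median in aba2-3 IAA shoots or aba2-3 IAA roots. A percent can therefore also differ where genotype or hormone changes these genes. The root signature was 38.42% to 45.69% in Col-O ABA roots and 103.5% to 112.88% in aba2-3 mock roots. The reference shoots include aba2-3 IAA shoot 3. The shoot signature stood at 5.81% to 10.92% in 5 root libraries (Col-O mock root 3, Col-O IAA root 2, Col-O ABA root 2 and 3, and aba2-3 mock root 1), against 0.46% to 1.89% in the other 10. The root signature was highest in aba2-3 IAA shoot 3 (8.16%), aba2-3 mock shoot 3 (5.19%) and Col-O mock shoot 1 (3.84%), and the last of these had only 39.81% of the shoot signature. ABA2 itself was present in the mutant, at 26.0 ± 4.22 CPM in aba2-3 mock roots and 22.6 ± 2.21 CPM in Col-O mock roots (SD, n = 3 each), so the transcript level does not check the genotype labels.

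Taken as a sum, the 60 loci gave more of the RNA in roots than in shoots in every group. The sum was 17870 ± 1366 CPM in aba2-3 IAA roots, 16647 ± 485 in aba2-3 mock roots, 17202 ± 785 in Col-O IAA roots, 16016 ± 1792 in Col-O ABA roots and 15467 ± 394 in Col-O mock roots (mean ± SD, n = 3 each). In shoots it was 7657 ± 363 CPM in aba2-3 IAA, 7714 ± 671 in aba2-3 mock, 7322 ± 1645 in Col-O IAA, 8167 ± 155 in Col-O ABA and 8047 ± 3056 in Col-O mock. No root library overlapped any shoot library. Col-O mock shoots had the widest range, 5585 to 11467 CPM, and their highest library was replicate 1, the one with the low shoot signature. In bulk RNA of an organ, fewer cells of a type and less RNA per cell cannot be told apart.

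**Figure D1:**
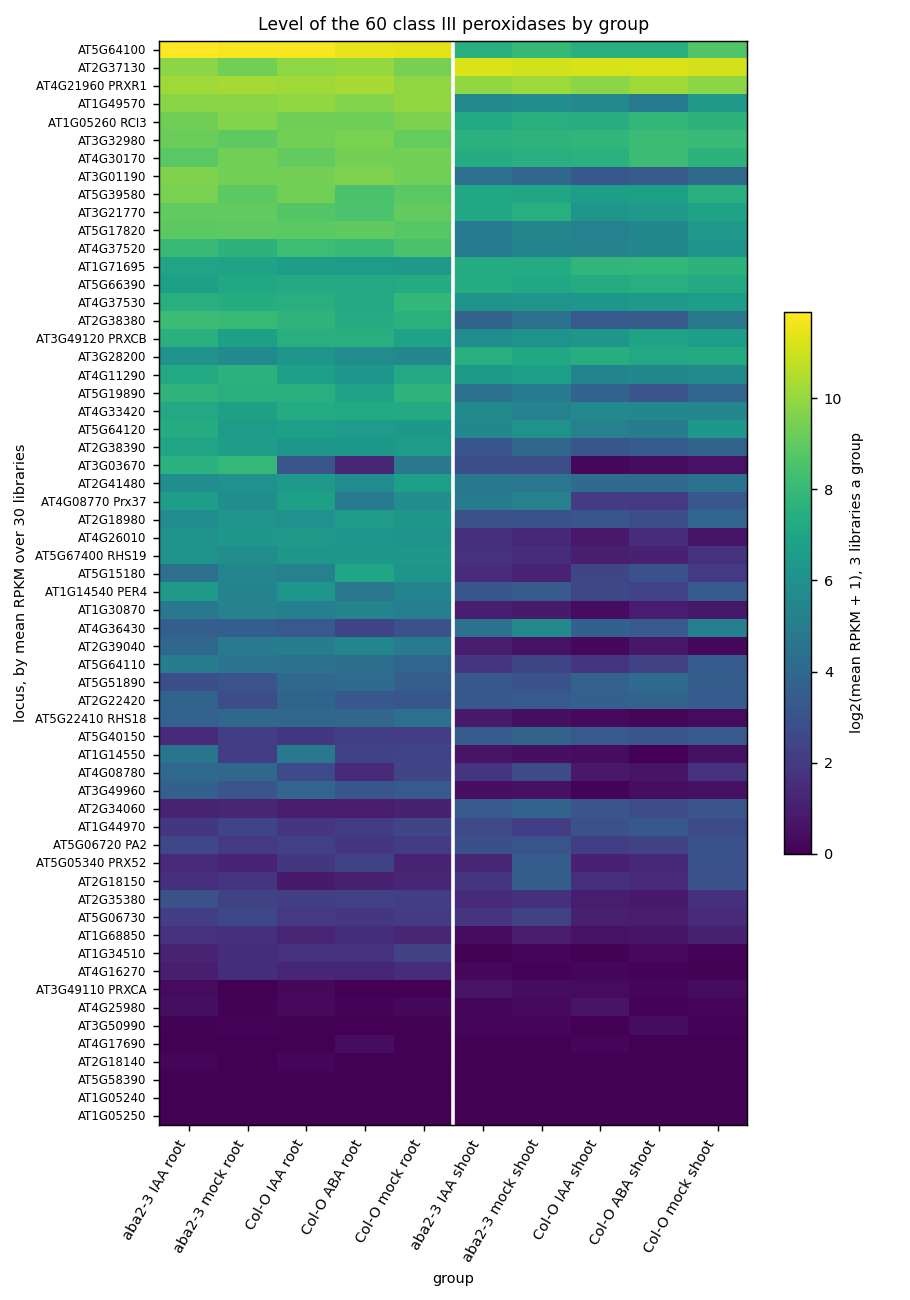
Heat map of the level of each of the 60 loci (rows, ordered by mean) in the 10 groups (columns), as log2(mean RPKM + 1) over 3 libraries. The upper rows are strong in all groups or in all 5 root groups, and the 8 loci with a mean under 1 CPM in every group lie at the bottom.

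A few loci gave a large part of that RNA: AT5G64100, AT2G37130 and AT4G21960 together gave 37.7% to 44.2% of the sum in roots and 63.0% to 68.8% in shoots. The highest mean over the 30 libraries was 1746 RPKM for AT5G64100, then 1579.6 RPKM for AT2G37130, 1100.1 RPKM for AT4G21960 (PRXR1), 486 RPKM for AT1G49570 and 441 RPKM for AT1G05260 (RCI3, first described as induced by cold). AT5G64100 had 4747, 4207 and 5172 CPM in aba2-3 IAA roots and 4029.8, 4334 and 4288 CPM in aba2-3 mock roots. In Col-O roots it had 4047, 4443 and 4442 CPM with IAA, 4078, 2985 and 3735 CPM with ABA and 3246, 3596 and 3120.5 CPM with mock. It was the leading locus of every root library, at 21.5% to 26.3% of the family sum in the group means, and 2.77% to 5.66% in shoots. AT2G37130 led in shoots, where it gave 39.1% to 45.4% of the sum, and it gave 5.57% to 9.20% in roots. AT4G21960 stood close to even between the organs: 1982 ± 23.7 CPM in aba2-3 mock roots and 1768 ± 106 CPM in aba2-3 mock shoots, and 1525 ± 107 CPM in Col-O mock roots and 1435 ± 418 CPM in Col-O mock shoots.

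At the other end, 7 loci stayed under 1 CPM in every library: AT1G05240, AT1G05250, AT2G18140, AT3G50990, AT4G17690, AT4G25980 and AT5G58390. An eighth, AT3G49110 (PRXCA), was under 1 CPM in every group mean, and reached 1.55 CPM in 1 library, aba2-3 IAA shoot 3, which is also the shallowest. Over all 30 libraries AT1G05240 had 5 counts and AT1G05250 had 3. AT3G50990 (PER36, which acts in the seed coat) had 80 counts, AT4G17690 had 47, AT2G18140 had 22 and AT5G58390 had 18. AT4G25980 had 169 counts and AT3G49110 had 185. The filter on low counts removed 6 of the 8 and left 54 loci for testing, AT4G25980 and AT3G49110 included.

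The low values of the AT1G05240 pair come with a limit. The exon sequence of AT1G05240, 1277 bases in 4 exons at chr1:1521137-1522681 on the plus strand, is found whole and without a mismatch in AT1G05250 at chr1:1525601-1527234 on the minus strand (coordinates as deposited, TAIR10). How reads that match several places were counted is not given in the sources used here, so a level near 0 for this pair is a level of the deposited counts, not of the transcript. Other close neighbours differ enough to be told apart along most of their length. Identity over the aligned exon sequence was 93.8% for AT4G08770 and AT4G08780, 92.0% for AT2G18140 and AT2G18150, 90.8% for AT4G37520 and AT4G37530, 90.3% for AT2G38380 and AT2G38390 and 88.9% for AT3G49110 and AT3G49120. Of the 60 loci, 13 shared any word of 50 bases with another gene, and 3 shared over 10% of their words: the AT1G05240 pair and AT4G08780. AT4G16270 overlaps an antisense gene, AT4G25980 overlaps a gene on its own strand, and whether counting used strand is not given either.

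Neighbours could stand at very different levels per length. In Col-O mock roots AT3G49120 (PRXCB) had 115 ± 21.6 RPKM and AT3G49110 had 0.0274 ± 0.0475 RPKM, and both lie on the plus strand of chromosome 3 with 4508 bases between them. In the same roots AT4G08770 had 55.5 ± 4.06 RPKM and AT4G08780 had 4.53 ± 1.60 RPKM. The members of the AT5G64100 cluster on chromosome 5 had 2678 ± 199 RPKM (AT5G64100), 13.5 ± 7.58 RPKM (AT5G64110) and 79.5 ± 21.3 RPKM (AT5G64120, PRX71). AT4G37520 and AT4G37530 were nearer to each other, at 360.4 ± 57.0 and 232 ± 36.1 RPKM, and AT5G06720 and AT5G06730 were level, at 3.29 ± 0.954 and 3.22 ± 0.861 RPKM (mean ± SD, n = 3 each).

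The first comparison asks in which organ of the seedling the RNA of each peroxidase is higher. Calls rest on edgeR's quasi-likelihood F test with Benjamini-Hochberg adjustment over 22156 genes, at an adjusted p under 0.05. In Col-O mock seedlings 31 of 54 loci were higher and 10 were lower in root than in shoot, 41 called in all, beside 49.9% of all genes tested (24.3% higher, 25.6% lower). In aba2-3 mock seedlings 33 were higher and 11 lower, beside 53.9% of all genes (26.3% higher, 27.7% lower). The share called is above the background in both, and the direction is uneven: the median log2 root over shoot was 1.64 over the tested loci and 0.03 over all genes in Col-O, and 1.48 and 0.006 in aba2-3. Of the loci, 40 were called in both genotypes and in the same direction, 30 higher and 10 lower in root. The share of all genes called in both genotypes, in the same or in opposite directions, was not read. The labels do not say that the 3 libraries of a group came from separate cultures, so the p-values measure the spread between these samples.

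**Figure D2:**
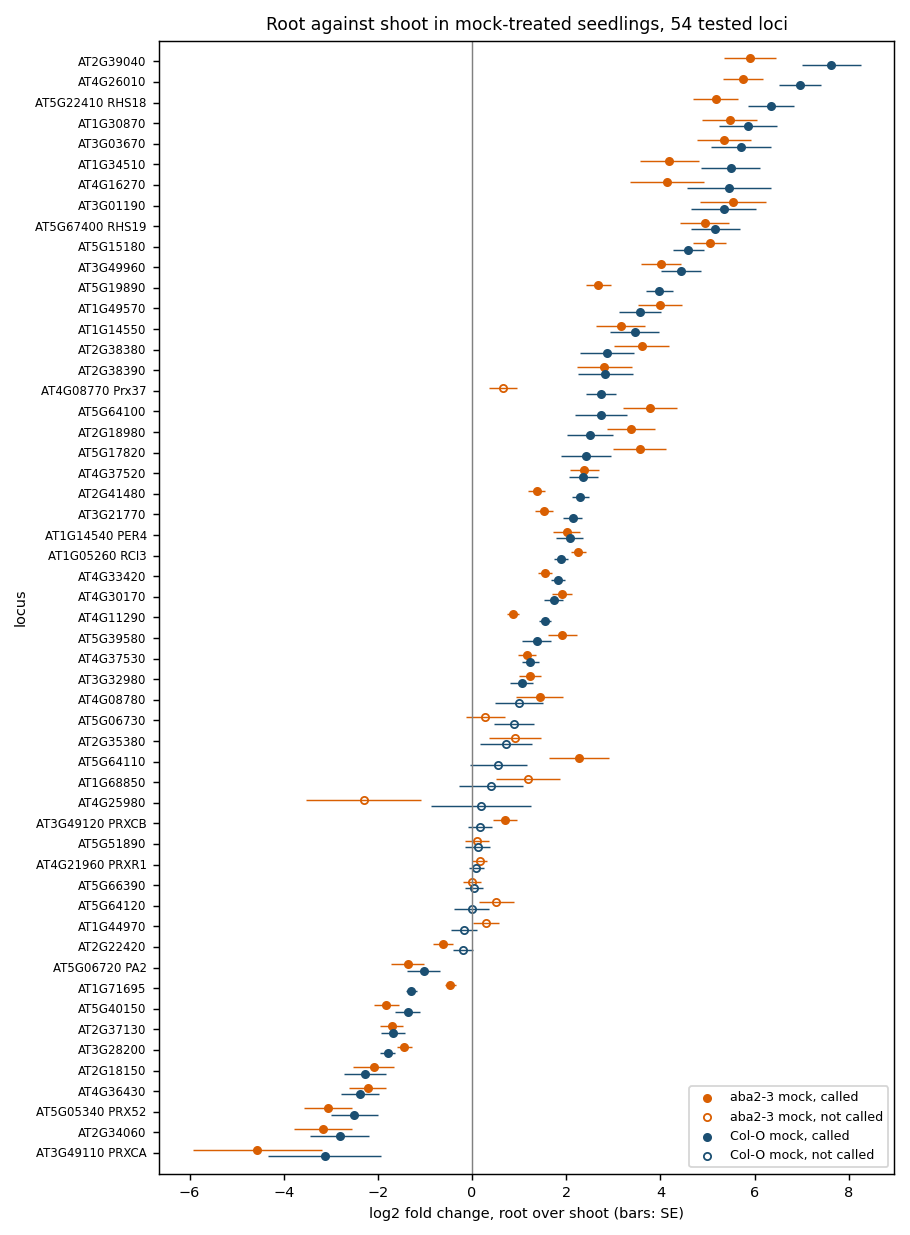
Log2 fold change of root over shoot for the 54 tested loci in aba2-3 mock and Col-O mock seedlings, with bars of 1 SE, ordered by the value in Col-O. Most points lie right of 0, from 7.63 for AT2G39040 downwards, and a smaller set lies left of 0 in both genotypes.

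Some root hair peroxidases were among the most uneven between the organs. The list of root hair peroxidases has 6 members, and the 5 tested were all higher in root in both genotypes. AT4G26010 had 87.4, 107 and 106 CPM in aba2-3 mock roots, against 2.84, 1.41 and 1.24 CPM in aba2-3 mock shoots. In Col-O it had 99.5, 73.4 and 85.4 CPM in mock roots, against 0.602, 0.542 and 1.05 CPM in mock shoots. All root libraries were far above all shoot libraries, and the log2 fold change was 5.75 (SE 0.42, edgeR adjusted p 1.9e-10) in aba2-3 and 6.96 (SE 0.45, edgeR adjusted p 6.2e-11) in Col-O. AT5G22410 (RHS18, root hair specific 18) had 31.5, 20 and 22.6 CPM in Col-O mock roots, against 0.482, 0.202 and 0.320 CPM in Col-O mock shoots. AT5G67400 (RHS19) had 119.6, 83.6 and 92.0 CPM in Col-O mock roots, against 3.89, 1.40 and 3.29 CPM in Col-O mock shoots. The groups of both loci were far apart, with log2 values of 6.34 (SE 0.49, edgeR adjusted p 6.7e-10) and 5.16 (SE 0.52, edgeR adjusted p 2e-08). AT5G64100 and AT5G39580, the other tested members, reached 2.74 and 1.37 on the log2 scale in Col-O and 3.78 and 1.92 in aba2-3.

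Promoters of the loci with the steepest root over shoot ratios were searched for short motifs. The letters ACGTG, the core of the ABA response element, were searched on both strands from 250 bases before to 50 bases after the RefSeq gene start, and were found in 24 of the 60 loci (40.0%), against 26.7% of 27443 promoters of protein-coding genes. Of the 9 loci with a Col-O root over shoot log2 value above 5, a bound chosen after the values were seen, 8 hold it. So do 12 of the other 45 tested loci and 4 of the 6 not tested. The share among other genes of like root enrichment was not read. The sequences are shown for 4 of those 8 and for AT3G03670, the exception among the 9. They are the 250 bases before the start in the RefSeq annotation of TAIR10.1, 5′ to 3′ along the gene, in lower case with the motif matches in capitals: ACGTG or its reverse CACGT, and, in AT5G22410, also CCGACA, which is the reverse of TGTCGG. The RefSeq start can lie upstream of the deposited one. AT4G26010 is at chr4:13200164-13200413 (plus), AT5G22410 at chr5:7426060-7426309 (plus), AT5G67400 at chr5:26894528-26894777 (plus), AT1G34510 at chr1:12617033-12617282 (minus) and AT3G03670 at chr3:903412-903661 (minus).
AT4G26010: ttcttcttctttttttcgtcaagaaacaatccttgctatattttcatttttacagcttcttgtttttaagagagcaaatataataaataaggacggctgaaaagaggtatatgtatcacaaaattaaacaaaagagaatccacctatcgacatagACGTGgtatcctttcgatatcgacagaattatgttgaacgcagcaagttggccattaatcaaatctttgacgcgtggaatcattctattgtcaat
AT5G22410: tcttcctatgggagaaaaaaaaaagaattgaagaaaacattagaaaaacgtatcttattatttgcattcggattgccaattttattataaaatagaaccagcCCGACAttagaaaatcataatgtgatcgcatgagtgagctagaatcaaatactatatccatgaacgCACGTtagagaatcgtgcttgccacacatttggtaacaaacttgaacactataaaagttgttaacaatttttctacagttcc
AT5G67400: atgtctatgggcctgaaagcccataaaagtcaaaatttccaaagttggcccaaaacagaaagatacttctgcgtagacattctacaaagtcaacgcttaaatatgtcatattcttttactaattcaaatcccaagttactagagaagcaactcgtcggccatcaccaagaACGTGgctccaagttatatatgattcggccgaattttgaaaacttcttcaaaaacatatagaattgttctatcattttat
AT1G34510: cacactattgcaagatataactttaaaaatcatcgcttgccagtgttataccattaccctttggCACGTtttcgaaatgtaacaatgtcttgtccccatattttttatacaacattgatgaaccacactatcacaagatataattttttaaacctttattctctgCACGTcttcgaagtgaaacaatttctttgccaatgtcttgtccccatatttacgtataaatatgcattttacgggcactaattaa
AT3G03670: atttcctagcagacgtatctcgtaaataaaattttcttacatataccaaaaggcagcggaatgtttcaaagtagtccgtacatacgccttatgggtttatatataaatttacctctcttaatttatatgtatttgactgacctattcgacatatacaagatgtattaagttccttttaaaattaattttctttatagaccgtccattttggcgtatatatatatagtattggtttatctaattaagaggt

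In the first 3 of these the match begins at position -95, -82 and -80 from the start. A match describes these letters and no site of binding. The palindrome CACGTG, which contains ACGTG, was in 0 of the 60 promoters, against 7.68% of all promoters. The auxin response element TGTCTC was in 8 loci (13.3%, against 14.2% of all promoters) and TGTCGG in 2 (3.33%, against 5.12%). The root hair element, a longer motif of root hair genes, was searched after the other values were seen. It was in 3 loci (5.0%), AT2G35380, AT3G01190 and AT5G22410, against 0.867% of all promoters. Of these, AT5G22410 alone is on the list of root hair peroxidases. AT2G35380 was not called between root and shoot in either genotype. In AT5G22410 the element begins at position -92 and takes in the CACGT at -82, so these matches share letters.

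Other root-enriched loci reached like ratios without being on the root hair list. AT2G39040 had 39.3, 28.3 and 35.7 CPM in Col-O mock roots, against 0.241, 0.0744 and 0.366 CPM in Col-O mock shoots. This was the steepest of all, with a log2 value of 7.63 (SE 0.63, edgeR adjusted p 1.4e-09), and 5.90 (SE 0.55, edgeR adjusted p 5.3e-09) in aba2-3. AT3G01190 is different in level: it had 798, 763 and 835 CPM in Col-O mock roots, against 24.9, 9.48 and 24.6 CPM in Col-O mock shoots, a log2 value of 5.35 (SE 0.69, edgeR adjusted p 6e-07). AT1G30870, AT3G03670, AT1G34510 and AT4G16270 had log2 values of 5.86, 5.71, 5.49 and 5.45 in Col-O and 5.47, 5.35, 4.19 and 4.14 in aba2-3. The rest of the 30 ran down to 1.05 in Col-O for AT3G32980 and 0.87 in aba2-3 for AT4G11290. In between lay AT5G15180, AT3G49960, AT5G19890, AT1G49570, AT1G14550, AT2G38380, AT2G38390, AT2G18980, AT5G17820, AT4G37520, AT2G41480 (PRX25), AT3G21770, AT1G14540 (PER4), AT1G05260, AT4G33420, AT4G30170 and AT4G37530. AT3G01190 had 57.5 CPM in aba2-3 IAA shoot 3, the shoot library with the highest root signature, against 8.72 and 5.99 CPM in the other 2 libraries of that group. The part of root RNA in the low shoot levels was not tested, and leaving out the 8 libraries with more RNA of the other organ gave 41 called loci in Col-O and 45 in aba2-3.

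Casparian strip and UPB1 target peroxidases divided in a different way. Of the 4 listed Casparian strip members, AT1G05260 and AT4G11290 were higher in root in both genotypes. AT1G05260 had 891, 878 and 953 CPM in Col-O mock roots, against 289, 228 and 225 CPM in Col-O mock shoots, a log2 value of 1.88 (SE 0.15, edgeR adjusted p 1.3e-09). AT5G66390 (PRX72, known for stem lignin too) and AT1G44970 were not called in either genotype, with log2 values of 0.04 and -0.17 in Col-O and 0.00 and 0.30 in aba2-3. The 3 listed targets of UPB1, AT4G11290, AT4G16270 and AT5G17820, were all higher in root in both genotypes, by 1.55, 5.45 and 2.42 on the log2 scale in Col-O. UPB1 itself had 21.3 ± 7.27 CPM in root and 12.4 ± 3.18 CPM in shoot of aba2-3 mock seedlings (log2 0.78, SE 0.31, edgeR adjusted p 0.033), and 33.9 ± 4.02 and 23.6 ± 7.17 CPM in Col-O, where it was not called (log2 0.52, SE 0.30, edgeR adjusted p 0.16).

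A set of 10 loci was higher in the shoot in both genotypes. AT2G37130 had 954, 875 and 954 CPM in aba2-3 mock roots, against 3097, 2766 and 3222 CPM in aba2-3 mock shoots. The log2 value was -1.71 (SE 0.25, edgeR adjusted p 3.6e-06), and in Col-O it was -1.68 (SE 0.25, edgeR adjusted p 5.1e-06). AT3G28200, a locus with 1 exon, had 59.0, 52.4 and 50.3 CPM in aba2-3 mock roots and 142, 142 and 156 CPM in aba2-3 mock shoots. AT5G05340 (PRX52, which acts in lignin of the stem) had 0.954, 2.12 and 1.45 CPM in aba2-3 mock roots and 12.4, 14.6 and 11 CPM in aba2-3 mock shoots. None of these groups overlapped, and AT5G05340 had log2 values of -3.06 in aba2-3 and -2.50 in Col-O. The other 7 were AT2G34060, AT4G36430, AT2G18150, AT5G40150, AT1G71695, AT5G06720 (PA2) and AT3G49110. AT3G49110 rests on 1 count in aba2-3 mock roots and 31 in aba2-3 mock shoots, and on 3 and 41 in Col-O. The ratio of root to shoot, scaled by library totals, was 0.034 (exact 95% interval 0.000833 to 0.204) in aba2-3 and 0.169 (0.0334 to 0.529) in Col-O; the intervals cover counting error only. In Col-O, AT3G49110 and AT5G06720 lost their calls in some fits with 1 library left out, Col-O mock root 1 and Col-O mock shoot 1 among them, and with those libraries out 39 and 40 loci were called.

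The remaining tested loci were not called in both genotypes. AT1G44970, AT1G68850, AT2G35380, AT4G21960, AT4G25980, AT5G06730, AT5G51890, AT5G64120 and AT5G66390 were called in neither genotype. AT4G08770 (Prx37, higher in root) was called in Col-O alone, and AT2G22420, AT3G49120, AT4G08780 and AT5G64110 in aba2-3 alone, and whether those organ differences differ between the genotypes was not tested. The aba2-3 calls of AT2G22420, AT3G49120 and AT4G08780 were lost in some fits with 1 library left out, each of them without aba2-3 mock root 3 and without aba2-3 mock shoot 2, where 41 loci were called in both cases.

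Next, IAA against mock asks which peroxidases auxin changes within 2 h. In roots the clearest change was a rise of AT1G14550 in both genotypes. In aba2-3 roots 5 loci were higher and 2 lower, beside 11.8% of all genes called (7.02% higher, 4.82% lower), and in Col-O roots 3 were higher and 3 lower, beside 5.57% (2.64% higher, 2.92% lower). These are 7 of 54 loci (13%) in aba2-3, close to the background share of 11.8%. In Col-O they are 6 of 54 (11.1%), above the background share of 5.57%, on a count that was 1 to 4 with 1 library left out. The median log2 change was 0.105 over the tested loci and 0.002 over all genes in aba2-3, and 0.056 and -0.009 in Col-O.

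AT1G14550 had 20.5, 22.9 and 24.1 CPM in aba2-3 IAA roots, against 4.42, 2.57 and 2.86 CPM in aba2-3 mock roots. In Col-O it had 28.5, 21.0 and 27.7 CPM in IAA roots, against 4.05, 4.08 and 4.12 CPM in mock roots. Every IAA library lay far above every mock library, and the rise was 6.87-fold in aba2-3 (log2 2.78, SE 0.44, edgeR adjusted p 0.00016) and 6.30-fold in Col-O (log2 2.66, SE 0.44, edgeR adjusted p 0.00046). Its neighbour AT1G14540 (PER4) begins on the opposite strand with 3322 bases between the pair, and the exon sequences are 74.0% identical. AT1G14540 had 98.6, 103 and 112 CPM in aba2-3 IAA roots, against 42.9, 45.5 and 56.0 CPM in aba2-3 mock roots. Here too no library overlapped, and the rise was 2.18-fold (log2 1.12, SE 0.28, edgeR adjusted p 0.011). In Col-O roots the same locus had 96.7, 85.0 and 88.2 CPM with IAA, against 43.8, 58.6 and 46.2 CPM with mock, and did not pass (log2 0.86, SE 0.28, edgeR adjusted p 0.075). The promoter of AT1G14550, shown because the locus rose in both genotypes, is at chr1:4978672-4978921 (plus, RefSeq TAIR10.1) and holds 1 ACGTG, in capitals as CACGT at position -50, and neither TGTCTC nor TGTCGG.
AT1G14550: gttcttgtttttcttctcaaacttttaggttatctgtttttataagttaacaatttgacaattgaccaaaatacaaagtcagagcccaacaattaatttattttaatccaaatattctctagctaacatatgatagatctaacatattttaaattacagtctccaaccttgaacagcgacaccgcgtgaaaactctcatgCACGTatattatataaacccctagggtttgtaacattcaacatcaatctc

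Further changes were seen with IAA in roots. AT2G22420, a locus tied to stem lignin, rose in both genotypes: it had 15, 16.9 and 13.6 CPM in aba2-3 IAA roots against 9.85, 4.68 and 6.59 CPM in aba2-3 mock roots (log2 1.11, SE 0.21, edgeR adjusted p 0.0012). In Col-O it had 13.5, 15.7 and 17.4 CPM in IAA roots against 9.47, 8.91 and 9.73 CPM in mock roots (log2 0.73, SE 0.21, edgeR adjusted p 0.043). AT5G15180 fell in both, to 25.1, 22.3 and 24.0 CPM in aba2-3 IAA roots, against 40.2, 47.9 and 57.7 CPM in aba2-3 mock roots (log2 -1.03, SE 0.28, edgeR adjusted p 0.019). In Col-O, AT5G15180 had 48.3, 34.7 and 43.2 CPM in IAA roots against 94.9, 80.7 and 74.1 CPM in mock roots (log2 -0.98, SE 0.28, edgeR adjusted p 0.039). None of these groups overlapped.

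The other calls stood in 1 genotype each. In aba2-3 roots AT3G49120, whose product takes part in the oxidative burst against pathogens, had 244, 241 and 264 CPM with IAA against 127, 137 and 155 CPM with mock (log2 0.84, SE 0.25, edgeR adjusted p 0.029). AT5G40150 had 2.56, 3.32 and 1.95 CPM with IAA against 5.73, 4.61 and 6.30 CPM with mock (log2 -1.11, SE 0.29, edgeR adjusted p 0.012). Both pairs of groups were apart. AT3G49110 was called as well (edgeR adjusted p 0.042) on 26 counts with IAA and 1 with mock, a ratio of 26.1 with an exact 95% interval of 4.28 to 1069.0. In Col-O roots AT3G03670 had 7.71, 7.89 and 12.0 CPM with IAA against 33.8, 32.3 and 26.6 CPM with mock (log2 -1.75, SE 0.50, edgeR adjusted p 0.038). AT4G11290 had 139, 112 and 122 CPM with IAA against 165, 176 and 179 CPM with mock (log2 -0.48, SE 0.13, edgeR adjusted p 0.028). Again all IAA libraries were below all mock libraries. AT3G28200 had 69.8, 95.1 and 83.5 CPM with IAA against 37.1, 58.8 and 50.5 CPM with mock (log2 0.76, SE 0.16, edgeR adjusted p 0.0047). It is a shoot-enriched locus; the shoot signature was 0.46%, 7.96% and 0.52% in the IAA roots and 0.51%, 0.77% and 7.39% in the mock roots. The call was lost without Col-O mock root 1 and without the 8 libraries with RNA of the other organ (highest edgeR adjusted p 0.083), while the log2 value lay between 0.60 and 0.92 in every fit.

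Whether IAA acted differently in the genotypes was tested directly in roots. The test of genotype by IAA called 0 of the 54 loci, beside 1.32% of all genes (0.74% higher, 0.582% lower). Of them 3 had an unadjusted p under 0.05 in edgeR, and DESeq2 also called 0. AT3G03670 was 1 of those 3, with 223, 207 and 246 CPM in aba2-3 IAA roots against 285, 275 and 289 CPM in aba2-3 mock roots (log2 -0.33, SE 0.47, edgeR adjusted p 0.70), and an interaction of 1.42 (SE 0.68, edgeR adjusted p 0.33). The calls in roots depended on single libraries. With 1 library left out, the Col-O count was 1 without mock root 1, 2 without mock root 2, mock root 3, IAA root 2 or IAA root 3, and 4 without IAA root 1. In aba2-3 it was 4 without mock root 2 or IAA root 3, 5 without mock root 3, IAA root 1 or IAA root 2, and 6 without mock root 1. AT1G14550 in both genotypes and AT2G22420 in aba2-3 kept their calls in each of these fits, while in Col-O AT2G22420, AT5G15180 and AT3G03670 lost theirs with any 1 library left out.

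In shoots IAA lowered a small group of loci and raised none of them past the threshold. In aba2-3 shoots 0 were higher and 2 lower, beside 1.92% of all genes, and in Col-O shoots 0 were higher and 4 lower, beside 2.22%. These are small counts of 54, set beside a background where falls alone make up 0.515% of all genes in aba2-3 and 1.30% in Col-O, and rises 1.40% and 0.921%. DESeq2 also called 0 higher in either genotype, and 7 loci in aba2-3 and 21 in Col-O had an unadjusted p under 0.05 in edgeR in either direction. The median log2 change was -0.24 over the tested loci and -0.07 over all genes in aba2-3, and -0.512 and -0.041 in Col-O. AT5G05340 (PRX52) had 1.58, 1.86 and 1.55 CPM in aba2-3 IAA shoots, against 12.4, 14.6 and 11 CPM in aba2-3 mock shoots. In Col-O it had 1.83, 1.46 and 0.916 CPM in IAA shoots, against 13.3, 6.38 and 5.53 CPM in mock shoots. All IAA libraries were well below all mock libraries, with a log2 value of -2.91 (SE 0.53, edgeR adjusted p 0.0017) in aba2-3 and -2.58 (SE 0.50, edgeR adjusted p 0.0046) in Col-O.

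AT2G18150 was called lower in both genotypes, with calls that rest on single libraries. It had 2.99, 3.73 and 3.11 CPM in aba2-3 IAA shoots, against 13.3, 11.7 and 13.7 CPM in aba2-3 mock shoots (log2 -1.97, SE 0.45, edgeR adjusted p 0.017). In Col-O it had 2.30, 1.29 and 4.07 CPM in IAA shoots, against 11.4, 7.02 and 6.36 CPM in mock shoots (log2 -1.69, SE 0.44, edgeR adjusted p 0.039). The groups did not overlap in either genotype. The aba2-3 call was lost with any 1 library left out and without the 8 libraries with RNA of the other organ (edgeR adjusted p up to 0.13, log2 -2.04 to -1.83). The Col-O call was kept in 1 of 6 leave-one-out fits, the one without IAA shoot 3 (edgeR adjusted p up to 0.26, log2 -2.18 to -1.33). AT4G36430 and AT4G08770 (Prx37, whose overexpression is known to stunt growth) fell in Col-O. AT4G36430 had 20.9, 10.0 and 12.5 CPM in IAA shoots, against 59.5, 31.7 and 34.1 CPM in mock shoots (log2 -1.53, SE 0.39, edgeR adjusted p 0.038). AT4G08770 had 5.43, 4.08 and 2.90 CPM in IAA shoots, against 12.6, 10.4 and 7.73 CPM in mock shoots (log2 -1.31, SE 0.33, edgeR adjusted p 0.032). In each of these, Col-O mock shoot 1 was the highest mock library; it is the one with the low shoot signature. The Col-O count was 1 without mock shoot 1 or IAA shoot 2, 2 without mock shoot 3 or IAA shoot 3, 7 without mock shoot 2 and 18 without IAA shoot 1. With the replicate number as a block it was 5. Without the 8 libraries with RNA of the other organ it was 1, and AT5G05340 had an edgeR adjusted p of 0.065 there, with a log2 value between -2.79 and -2.06 in every Col-O fit. AT5G05340 kept its call in each leave-one-out fit of both genotypes. In aba2-3 the count was 1 in each fit that left out any mock shoot library, IAA shoot 1 or IAA shoot 2. The test of genotype by IAA in shoots called 0 loci, beside 0.00451% of all genes (1 gene), with 3 at an unadjusted p under 0.05 in edgeR and 0 in DESeq2.

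**Figure D3:**
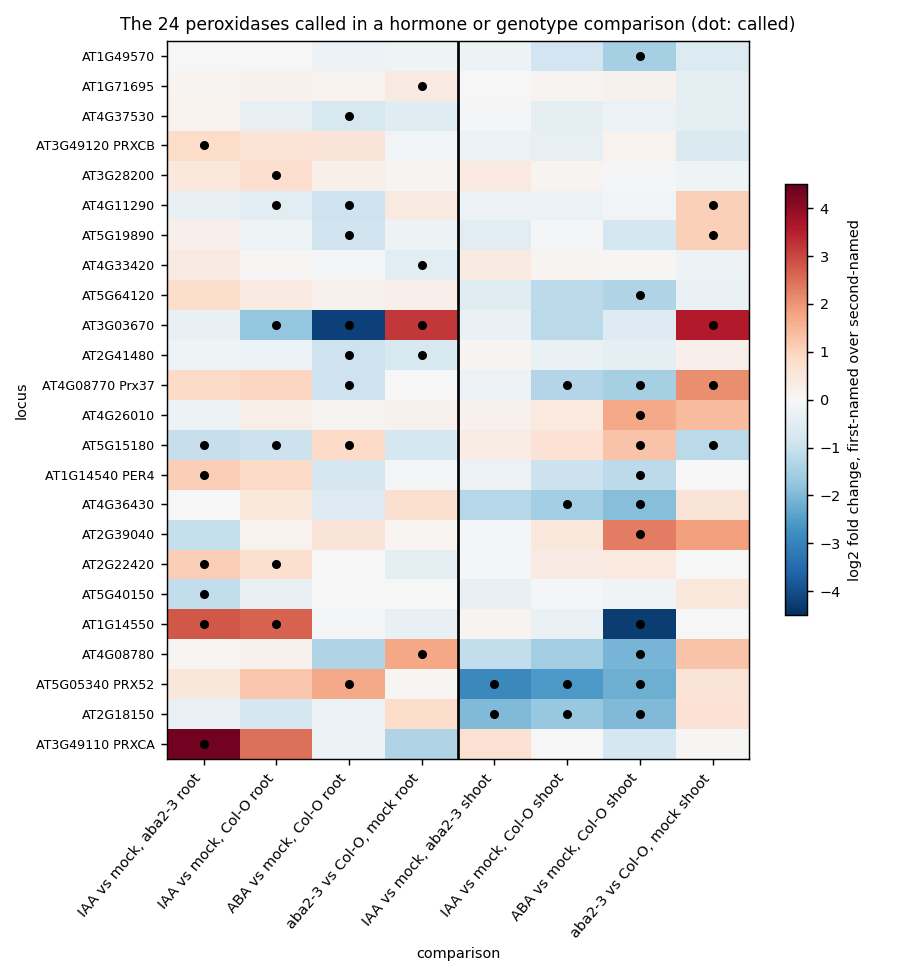
Log2 fold change of the 24 loci called in at least 1 of the 8 hormone and genotype comparisons (rows), with a dot where a locus was called. Colours run from lower to higher than the mock or Col-O libraries, with AT3G03670 at -4.20 for ABA in Col-O roots and 3.19 for aba2-3 in mock roots. The dark cells of AT3G49110 and of AT1G14550 in ABA shoots rest on 1 count in 1 of the groups compared.

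ABA against mock was measured in Col-O alone, and its comparisons share their mock libraries with those of IAA, so the values are given without an overlap between the lists. In roots 2 loci were higher and 6 lower, 8 of 54, beside 15.7% of all genes called (8.31% higher, 7.40% lower), which is close to the background, and the median log2 change was -0.155 over the tested loci and -0.028 over all genes. The largest change was in AT3G03670, which had 1.98, 1.57 and 1.43 CPM in ABA roots, against 33.8, 32.3 and 26.6 CPM in mock roots. Every ABA library was far below every mock library, with a log2 value of -4.20 (SE 0.57, edgeR adjusted p 5.1e-06). AT4G11290, of the Casparian strip list, had 102, 82.4 and 86.8 CPM in ABA roots, against 165, 176 and 179 CPM in mock roots (log2 -0.94, SE 0.13, edgeR adjusted p 7.1e-06). AT2G41480 (PRX25, of stem lignin) had 72, 58.1 and 65.9 CPM in ABA roots, against 119, 130.3 and 122 CPM in mock roots (log2 -0.92, SE 0.17, edgeR adjusted p 0.00038). The libraries of ABA and mock did not overlap for either locus.

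AT4G08770, AT5G19890 and AT4G37530 also fell in ABA roots. AT4G08770 had 48.7, 29.1 and 30.8 CPM in ABA roots against 74.3, 65.7 and 65.4 CPM in mock roots (log2 -0.92, SE 0.31, edgeR adjusted p 0.041). AT5G19890 had 158, 133 and 150.1 CPM in ABA roots against 353, 241 and 224 CPM in mock roots (log2 -0.89, SE 0.26, edgeR adjusted p 0.018). AT4G37530 had 147, 177 and 186 CPM in ABA roots against 269.9, 325 and 240.2 CPM in mock roots (log2 -0.71, SE 0.18, edgeR adjusted p 0.0075). The groups were apart in each case. AT5G15180 rose: it had 129, 143 and 185 CPM in ABA roots against 94.9, 80.7 and 74.1 CPM in mock roots (log2 0.87, SE 0.28, edgeR adjusted p 0.033). AT5G05340 had 6.10, 3.84 and 4.47 CPM in ABA roots against 0.916, 2.02 and 1.49 CPM in mock roots (log2 1.70, SE 0.49, edgeR adjusted p 0.017). It is a shoot-enriched locus; the shoot signature was 0.72%, 10.92% and 6.14% in the ABA roots and 0.51%, 0.77% and 7.39% in the mock roots, and the part of shoot RNA in this change was not tested. Leaving out the 8 libraries with RNA of the other organ, which leaves 1 ABA root library, gave 3 calls. AT5G05340 was not among them and also lost its call without mock root 1 or ABA root 1, while its log2 value lay between 1.45 and 2.07 in every fit. With single libraries left out the count was 4 without mock root 1 and 5 without mock root 2 or ABA root 3. It was 6 without ABA root 1 and 7 without mock root 3 or ABA root 2. AT3G03670, AT4G11290 and AT2G41480 kept their calls in all 6 of these leave-one-out fits. AT2G41480 lost its call without the 8 libraries with RNA of the other organ, and its log2 value lay between -0.97 and -0.77 in every fit. The 5 tested root hair peroxidases had log2 changes between -0.48 and 0.13 with ABA in roots, between -0.23 and 0.57 with IAA in aba2-3 roots and between -0.41 and 0.50 with IAA in Col-O roots, and their unadjusted p ranged upwards of 0.066.

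In ABA shoots 3 loci were higher and 9 lower than in mock shoots, 12 of 54, beside 9.65% of all genes called, with 4.98% higher and 4.67% lower. The balance moved with single libraries: without mock shoot 1, the library with the low shoot signature, 6 loci were higher and 4 lower, and without mock shoot 2 there were 0 higher and 10 lower. The median log2 change was -0.519 over the tested loci and -0.071 over all genes. AT4G36430 had 13.4, 10.3 and 9.78 CPM in ABA shoots, against 59.5, 31.7 and 34.1 CPM in mock shoots (log2 -1.90, SE 0.40, edgeR adjusted p 0.0021). AT2G18150 had 2.52, 2.77 and 1.00 CPM in ABA shoots, against 11.4, 7.02 and 6.36 CPM in mock shoots (log2 -1.97, SE 0.44, edgeR adjusted p 0.0039). AT4G08770 had 1.59, 6.42 and 2.89 CPM in ABA shoots, against 12.6, 10.4 and 7.73 CPM in mock shoots (log2 -1.51, SE 0.33, edgeR adjusted p 0.0031). AT5G05340 had 1.79, 3.26 and 0.421 CPM in ABA shoots, against 13.3, 6.38 and 5.53 CPM in mock shoots (log2 -2.19, SE 0.49, edgeR adjusted p 0.0037). These 4 loci had no overlap between ABA and mock and kept their calls with any 1 library left out. Where only the groups compared were fitted, AT5G05340 (edgeR adjusted p 0.076) and AT4G08770 (edgeR adjusted p 0.11) lost their calls. Over every fit the log2 value lay between -2.82 and -1.66 for AT5G05340 and between -2.16 and -1.07 for AT4G08770.

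The other falls in ABA shoots were less even. AT1G49570 had 41.6, 49.4 and 29.9 CPM in ABA shoots, against 163, 68.4 and 108 CPM in mock shoots (log2 -1.49, SE 0.42, edgeR adjusted p 0.023). AT5G64120 (PRX71, known from lignin and from walls under stress) had 40.7, 49.3 and 32.7 CPM in ABA shoots, against 175, 48.8 and 86.5 CPM in mock shoots (log2 -1.34, SE 0.38, edgeR adjusted p 0.024). AT1G14540 had 5.38, 8.05 and 2.16 CPM in ABA shoots, against 18.7, 7.61 and 9.37 CPM in mock shoots (log2 -1.18, SE 0.30, edgeR adjusted p 0.011). The groups overlapped for AT5G64120 and AT1G14540, and mock shoot 1 was the highest mock library for all 3. AT4G08780 was lower at a low level, 0.574 ± 0.323 against 2.40 ± 0.597 CPM. AT1G14550 was called (edgeR adjusted p 0.012) on 1 count in ABA shoots and 39 in mock shoots, a ratio of 0.0489, scaled by library totals, with an exact 95% interval of 0.00121 to 0.289. Of the rises, AT5G15180 had 9.00, 9.44 and 6.42 CPM in ABA shoots, against 4.25, 2.55 and 3.70 CPM in mock shoots (log2 1.27, SE 0.30, edgeR adjusted p 0.0068). AT4G26010 and AT2G39040, root-enriched loci, had 2.30 ± 1.65 and 0.841 ± 0.262 CPM in ABA shoots, against 0.732 ± 0.279 and 0.227 ± 0.146 CPM in mock shoots. The root signature was 0.97%, 1.80% and 0.58% in the ABA shoots and 3.84%, 1.41% and 2.84% in the mock shoots, and the highest AT4G26010 value, 4.20 CPM, was in ABA shoot 2. The root signature was itself lower in ABA roots, at 45.69%, 42.31% and 38.42%, against 83.96%, 80.31% and 80.47% in mock roots, and the part of root RNA in these values was not tested. The count was 8 without ABA shoot 2 or ABA shoot 3, 9 without ABA shoot 1, and 10 without any 1 mock shoot library.

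The comparison of aba2-3 with Col-O mock seedlings asks how the family differs where ABA biosynthesis is impaired, with no hormone added. In mock roots 3 loci were higher and 2 lower, 5 of 54, beside 7.19% of all genes called (3.26% higher, 3.92% lower), which is near the background. In mock shoots 4 were higher and 1 lower, 5 of 54, beside 2.63% of all genes (0.853% higher, 1.78% lower). The median log2 differences over the tested loci were 0.007 in roots and 0.005 in shoots. AT3G03670 was higher in aba2-3 in both organs. In mock roots it had 285, 275 and 289 CPM in aba2-3, against 33.8, 32.3 and 26.6 CPM in Col-O (log2 3.19, SE 0.52, edgeR adjusted p 0.00064). In shoots of mock seedlings it had 4.70, 6.40 and 9.71 CPM in aba2-3, against 0.763, 0.574 and 0.412 CPM in Col-O (log2 3.56, SE 0.60, edgeR adjusted p 0.0014). The genotypes did not overlap in either organ, and both calls were kept with any 1 library left out. In aba2-3 mock shoots 1, 2 and 3 the root signature was 3.52%, 3.09% and 5.19%, beside 4.70, 6.40 and 9.71 CPM. In aba2-3 IAA shoots it was 1.34%, 0.77% and 8.16%, beside 1.42, 1.60 and 19.2 CPM of AT3G03670. The part of root RNA in these values was not tested.

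The libraries of the 5 root groups did not overlap in their AT3G03670 level. Its mean was 225 CPM in aba2-3 IAA roots and 283 CPM in aba2-3 mock roots, and 9.19 CPM with IAA, 1.66 CPM with ABA and 30.9 CPM with mock in Col-O roots. From the top the order is aba2-3 mock, aba2-3 IAA, Col-O mock, Col-O IAA and Col-O ABA. The difference of the 2 aba2-3 groups did not pass the test (edgeR adjusted p 0.70). That of Col-O IAA and mock roots lost its call with any 1 of its 6 libraries left out (edgeR adjusted p up to 0.12) and in DESeq2, with a log2 value between -1.96 and -1.64. No role of this locus is given here.

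In shoots AT4G08770 and AT4G11290 were higher in aba2-3 as well. AT4G08770 had 47.1, 38.2 and 45.6 CPM in aba2-3 mock shoots, against 12.6, 10.4 and 7.73 CPM in Col-O mock shoots (log2 2.09, SE 0.32, edgeR adjusted p 0.00041). AT4G11290 had 133, 118 and 126 CPM in aba2-3 mock shoots, against 72, 49.2 and 56.6 CPM in Col-O mock shoots (log2 1.08, SE 0.13, edgeR adjusted p 3e-05). Both were without overlap and kept their calls with any 1 library left out. AT5G19890 had 31.3, 32.0 and 46.1 CPM in aba2-3 mock shoots, against 22.8, 13.6 and 15.7 CPM in Col-O mock shoots (log2 1.07, SE 0.26, edgeR adjusted p 0.026). AT5G15180 was lower, 1.45 ± 0.438 CPM in aba2-3 and 3.5 ± 0.869 CPM in Col-O mock shoots (log2 -1.23, SE 0.33, edgeR adjusted p 0.042). These last 2 were lost in some fits: the shoot count was 3 without Col-O mock shoot 3, aba2-3 mock shoot 2 or aba2-3 mock shoot 3, and 6 without Col-O mock shoot 2.

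In mock roots the other 4 calls were smaller. AT4G08780 had 8.50, 20.3 and 18.1 CPM in aba2-3 mock roots, against 2.94, 6.25 and 4.94 CPM in Col-O mock roots (log2 1.73, SE 0.50, edgeR adjusted p 0.036). AT2G41480 had 86.0, 72.8 and 68.9 CPM in aba2-3, against 119, 130.3 and 122 CPM in Col-O (log2 -0.71, SE 0.17, edgeR adjusted p 0.014). Both pairs were apart. AT4G33420 was lower, 131 ± 5.36 and 185 ± 11.9 CPM, and AT1G71695 was higher, 149 ± 13.6 and 112 ± 9.41 CPM in aba2-3 and Col-O. The root count was 1 without Col-O mock root 2 or aba2-3 mock root 2, 2 without Col-O mock root 1 or aba2-3 mock root 3, and 3 without Col-O mock root 3, and AT3G03670 alone kept its call in all 6 fits.

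**Figure D4:**
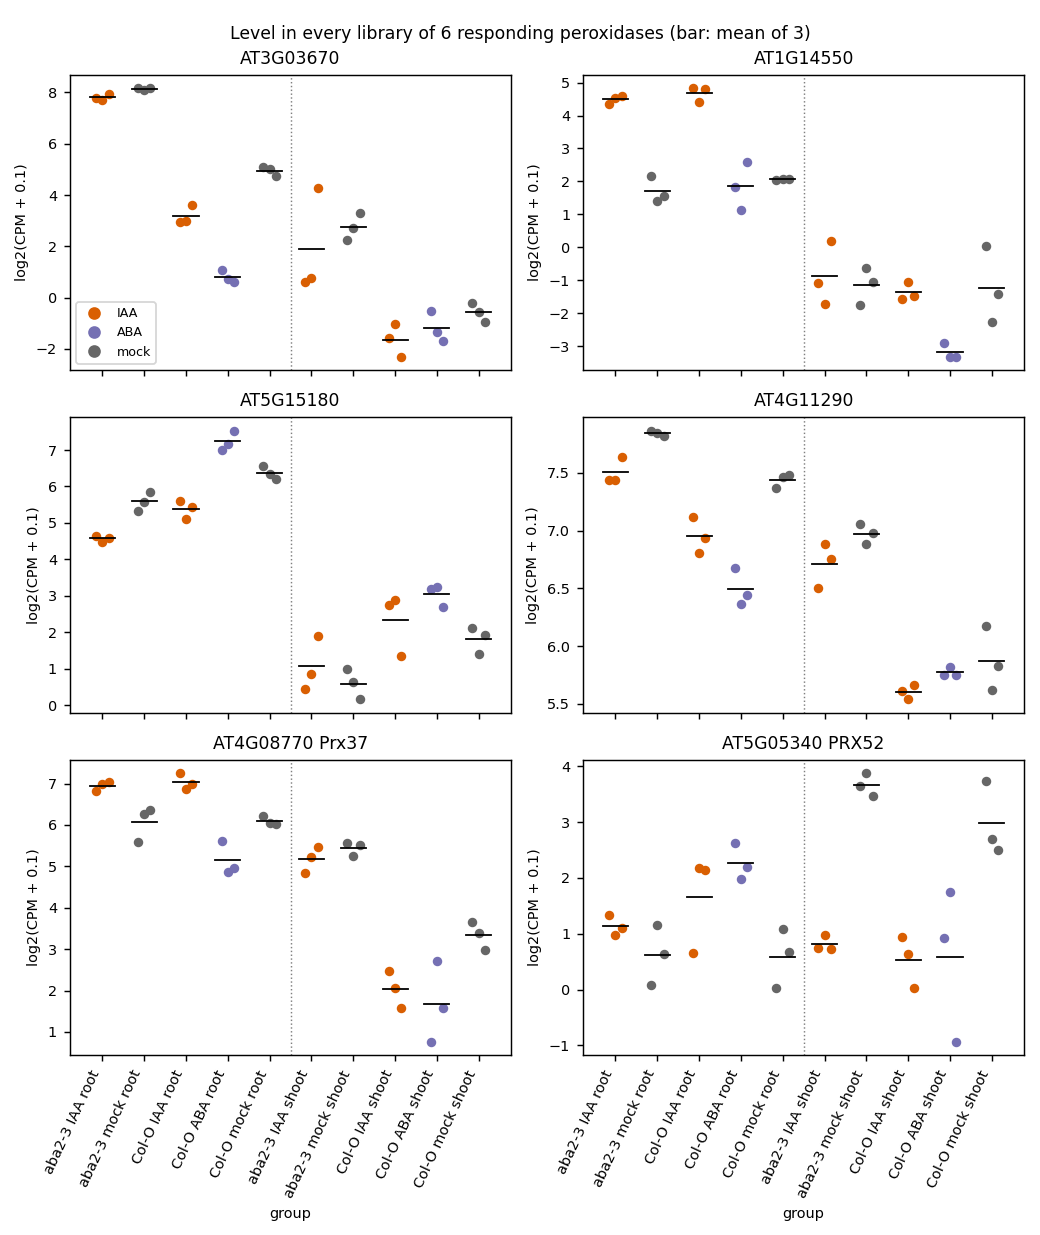
Level of 6 loci in each of the 30 libraries, as log2(CPM + 0.1), by group. AT3G03670 is high in aba2-3 roots and lowest among roots in Col-O ABA, AT1G14550 is raised in both IAA root groups, and AT5G05340 is lower in all 3 hormone-treated shoot groups than in the mock shoots.

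Whether a hormone acted differently in root and shoot was tested as an interaction, where a positive value means a more positive response in root. With IAA 2 loci were called in aba2-3, beside 2.19% of all genes (1.14% higher, 1.05% lower), and 3 in Col-O, beside 0.997% (0.542% higher, 0.456% lower). With ABA in Col-O 1 locus was higher and 1 lower, beside 1.72% (0.903% higher, 0.812% lower). AT5G05340 was called in all 3: the interaction was 3.40 (SE 0.72, edgeR adjusted p 0.012) for IAA in aba2-3, 3.78 (SE 0.70, edgeR adjusted p 0.007) for IAA in Col-O and 3.90 (SE 0.69, edgeR adjusted p 0.0029) for ABA in Col-O. Its roots had 2.12 ± 0.280 CPM with IAA and 1.51 ± 0.583 CPM with mock in aba2-3, and 3.41 ± 1.67, 4.80 ± 1.16 and 1.48 ± 0.552 CPM with IAA, ABA and mock in Col-O, where the mock shoots had 12.7 ± 1.81 CPM in aba2-3 and 8.41 ± 4.28 CPM in Col-O. So hormone-treated roots were level with or above mock roots while hormone-treated shoots were below mock shoots. AT4G08770 had an interaction of 2.26 (SE 0.45, edgeR adjusted p 0.012) with IAA in Col-O, with 152, 117 and 128 CPM in IAA roots and 74.3, 65.7 and 65.4 CPM in mock roots. AT1G14540 had 1.83 (SE 0.41, edgeR adjusted p 0.028) in the same test, and AT2G22420 had 1.18 (SE 0.30, edgeR adjusted p 0.038) with IAA in aba2-3. With 1 library left out, AT1G14540 kept its call in 5 of 12 fits and AT2G22420 in 1 of 12. With ABA, AT4G11290 had -0.82 (SE 0.18, edgeR adjusted p 0.018), a fall in root that the shoot did not show where the libraries had 53.6, 56.4 and 53.8 CPM with ABA and 72, 49.2 and 56.6 CPM with mock. The Col-O IAA count was 2 without mock root 3, IAA root 1, IAA root 3 or IAA shoot 2, 5 without mock shoot 2 and 13 without IAA shoot 1. The aba2-3 IAA count was 1 in each fit with 1 library left out, except those without mock root 1 or IAA shoot 3, and the ABA count was 1 without mock shoot 3 or ABA root 2 and 3 without mock shoot 1. AT5G05340 kept its call in each of these fits. For ABA it lost its call where only the groups compared were fitted (edgeR adjusted p 0.06), with interactions between 3.41 and 4.55 over every fit. Without the 8 libraries with RNA of the other organ it was not called for IAA in aba2-3 (edgeR adjusted p 0.065) or Col-O (edgeR adjusted p 0.098), with interactions between 3.11 and 3.65 in aba2-3 and between 3.00 and 4.13 in Col-O over every fit. The promoter of AT5G05340, shown because the hormone responses of the locus differ between the organs, is at chr5:1580876-1581125 (minus, RefSeq TAIR10.1), with its only ACGTG match in capitals as CACGT at position -43.
AT5G05340: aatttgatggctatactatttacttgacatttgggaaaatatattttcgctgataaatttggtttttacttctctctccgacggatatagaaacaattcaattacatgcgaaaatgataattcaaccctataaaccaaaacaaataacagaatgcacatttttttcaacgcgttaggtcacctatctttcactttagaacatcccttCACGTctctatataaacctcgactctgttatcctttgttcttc

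Over the 8 hormone and genotype comparisons 24 of the 54 loci were called at least once. Of the 24, 7 were called in 3 or more, and 30 loci were called in none. Among these 30 are AT5G64100, AT2G37130 and AT4G21960, the 3 loci with the highest means. In the single comparisons 1.92% to 15.7% of all genes were called. The share of all genes called at least once over the 8 was not read, so these pooled counts have no background beside them. The largest locus, AT5G64100, had a log2 change of 0.16 (SE 0.51) in aba2-3 roots and 0.38 (SE 0.52) in Col-O roots with IAA, and 0.12 (SE 0.51) in Col-O roots with ABA.

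Genes that act beside the peroxidases were read from lists of fixed membership. Of the RBOH oxidases, 7 of 9 tested were higher in Col-O mock roots than in shoots, beside 24.3% of all genes, among them RBOHC, which acts in root hairs (15 ± 2.05 against 2.60 ± 1.09 CPM), and 0 were lower. In Col-O ABA shoots 2 of the 9 were lower than in mock shoots, beside 4.67% of all genes lower. They were RBOHD (36.4 ± 4.24 against 60 ± 10.3 CPM, edgeR adjusted p 0.031) and RBOHA. The root signature was 0.97%, 1.80% and 0.58% in these ABA shoots and 3.84%, 1.41% and 2.84% in the mock shoots. The part of root RNA in these falls was not tested, and fits with 1 library left out were not read for these lists. All 5 root hair wall genes, such as EXPA7 (21.5 ± 3.86 CPM in Col-O mock roots against 0.350 ± 0.263 CPM in Col-O mock shoots), were higher in root in both genotypes, beside 26.3% of all genes higher in aba2-3 and 24.3% in Col-O. The bHLH factors of root hairs, RHD6 and RSL4, were higher in Col-O mock root by 4.97 and 4.12 on the log2 scale. The 3 lignin laccases were higher in root in both genotypes, against the same background, with LAC11 also higher with ABA in shoots (log2 0.64, edgeR adjusted p 0.034).

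Monolignol genes, which make the substrates of lignin, included 5 of 16 that were higher and 0 lower with ABA in roots, beside 8.31% of all genes higher and 7.40% lower. CAD5, which makes the alcohols in the last step, had 406 ± 94.1 CPM in ABA roots against 116 ± 15.4 CPM in mock roots (log2 1.81, SE 0.17, edgeR adjusted p 1.7e-08). PAL4 and COMT1 rose by 1.01 and 0.83. In IAA shoots 3 of 16 were lower in aba2-3, beside 0.515% of all genes lower, and 1 in Col-O, beside 1.30%. In ABA shoots 3 were higher and 1 lower, beside 4.98% and 4.67%, and in mock roots 2 were higher in aba2-3 than in Col-O, beside 3.26%. The repressor UPB1 rose in shoots: it had 42.0 ± 8.62 CPM with IAA against 12.4 ± 3.18 CPM with mock in aba2-3 (log2 1.76, SE 0.31, edgeR adjusted p 0.0015). In Col-O shoots it had 58.9 ± 2.18 CPM with IAA and 49.9 ± 1.71 CPM with ABA against 23.6 ± 7.17 CPM with mock (log2 1.32 and 1.08, edgeR adjusted p 0.018 and 0.022). In roots UPB1 had 27.4 ± 18.3 CPM with IAA and 21.3 ± 7.27 CPM with mock in aba2-3, and 19.6 ± 1.47, 41.3 ± 1.48 and 33.9 ± 4.02 CPM with IAA, ABA and mock in Col-O, where neither hormone passed the test.

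The 13 class III loci outside the list were read in the same fit, where 10 were tested. In Col-O mock seedlings 3 were higher in root (AT2G43480, AT5G14130 and AT5G24070) and 2 lower (AT2G24800 and AT3G17070), 5 of 10, beside 49.9% of all genes called, which is at the background. AT5G24070 had 24.5 ± 1.35 CPM in root and 0.343 ± 0.195 CPM in shoot. With hormones 1 was higher in Col-O IAA roots (AT1G77100, with means under 1 CPM), beside 2.64% of all genes higher, and 1 in Col-O ABA shoots (AT4G31760), beside 4.98%.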

How the data were processed

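Total RNA was extracted with a plant RNeasy kit and copied to cDNA with SMARTer chemistry, per the labels' protocols. The 30 deposited tables hold 3 values for each gene, its count, its CPM and its RPKM, per the file headers. In 30 of 30 tables the deposited CPM equals the count over the table's total, and the deposited RPKM equals that CPM per kilobase of exon. STAR, Subread, featureCounts, edgeR, limma and the build TAIR10 are named in the submitters' processing notes. The handling of strand and of reads that match several places is not given in the sources used here.

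Deposited counts were fitted with edgeR 4.0.16 (R 4.3.3, limma 3.58.1): TMM scaling, filterByExpr, 1 quasi-likelihood fit of the 10 groups over 30 libraries, 22156 genes tested, and Benjamini-Hochberg adjustment over all of them with a threshold of 0.05. CPM and RPKM printed in the text use the TMM library sizes, except in 2 places. Organ marker levels, and the family sums over all deposited or nuclear counts, use plain totals. Errors are SDs over 3 libraries. The SE of a log2 value was taken from its size and its F statistic. The procedure was tested on simulated data. Depth was 3.9 to 99.3 M counts, and no 2 libraries of a group agreed within sampling noise. Exact intervals (95%) on counts cover counting error only. Groups follow the titles in the labels. Alternatives were DESeq2 1.42.0, other size factors, no filter, fits of only the groups compared, a replicate block, 8 libraries left out or covariates for RNA of the other organ, and each library left out.

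Replicate numbers are shared between groups. Numbers were taken to pair samples only where each of the 3 correlations of same-numbered deviations was over 0.1, which held for IAA against mock in Col-O shoots (0.349, 0.138 and 0.13) and for no other comparison.

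Loci named in each comparison were up to 8 called members with the largest log2 change and a mean of at least 5 CPM in 1 group, up to 4 called per interaction, the members of the role lists and neighbouring loci where described, the 5 highest means, and those under 1 CPM in every group mean. Other called loci were added to complete small counts, after their values were seen. The members and all lists were chosen with earlier results of these data known.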

Additional observations from a re-analysis of the deposited data

Results flagged for a closer look

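Differences in hormone response between root and shoot, by the interaction test in edgeR's quasi-likelihood fit, drew attention at 4 loci with IAA and 2 with ABA. AT5G05340 had the largest, with a log2 interaction of 3.40 for IAA in aba2-3, 3.78 for IAA in Col-O and 3.90 for ABA in Col-O. For IAA in Col-O, AT4G08770 had 2.26 and AT1G14540 had 1.83. For IAA in aba2-3, AT2G22420 had 1.18. For ABA in Col-O, AT4G11290 had -0.82, a lower response in root. With 1 library left out, AT1G14540 kept its call in 5 of 12 fits, AT2G22420 in 1 of 12 and AT4G11290 in 9 of 12.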

How the results depend on the processing

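Among single loci, 141 called results had 1871 values under alternatives, of which 1650 were still called, 221 were not and 0 changed sign, and 93 results kept their call throughout. Counts of called loci moved by over 1.5 times as follows, and the cause was not tested. Fitting only the groups compared, the count with IAA was 11 in Col-O roots, 1 in Col-O shoots and 5 in aba2-3 shoots, with ABA 14 in roots and 4 in shoots, and between the genotypes 10 in mock roots and 3 in mock shoots. The same fits gave 1 for genotype by IAA in root, 5 for organ by IAA in aba2-3 and 1 for organ by ABA. Without the 8 libraries with RNA of the other organ it was 2 with IAA and 3 with ABA in Col-O roots, 1 with IAA in Col-O shoots, 3 between the genotypes in mock shoots and 1 for genotype by IAA in root. Covariates for that RNA gave 2 with IAA in Col-O shoots, 1 for genotype by IAA in root and 5 for organ by ABA. DESeq2 gave 7 with IAA in Col-O shoots, 9 between the genotypes in mock shoots, 7 for organ by IAA in Col-O, 5 in aba2-3 and 4 for organ by ABA. Without the filter on low counts 3 were called between the genotypes in mock roots. Organ by IAA in aba2-3 had 1 call with RLE size factors, without the filter and with the replicate block. The block gave 5 calls with IAA in Col-O shoots, where the numbers pair, and left the other counts within 1.5 times.

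With 1 library left out, IAA counts ranged 4 to 6 in aba2-3 roots, 1 to 4 in Col-O roots, 1 to 2 in aba2-3 shoots and 1 to 18 in Col-O shoots. ABA counts ranged 4 to 7 in roots and 8 to 10 in shoots, genotype counts 1 to 5 in mock roots and 3 to 6 in mock shoots, and root over shoot counts 41 to 45 in aba2-3 and 39 to 41 in Col-O. Interactions ranged 0 to 0 for genotype by IAA in both organs, 1 to 2 for organ by IAA in aba2-3, 2 to 13 in Col-O and 1 to 3 for organ by ABA. The family sum ranged 17316 to 18633 CPM in aba2-3 IAA, 16367 to 16791 in aba2-3 mock, 16921 to 17651 in Col-O IAA, 15350 to 17035 in Col-O ABA and 15240 to 15595 in Col-O mock roots, and 7537 to 7866, 7379 to 8050, 6434 to 8058, 8080 to 8231 and 6337 to 9278 CPM in shoots in the same order of groups. Over all deposited counts the sum was 18893 in Col-O IAA and 17571 in Col-O mock roots and 7224 in Col-O ABA shoots. Over counts of nuclear genes it was 17884 in aba2-3 mock, 19380 in Col-O IAA and 18064 in Col-O mock roots and 7387 in Col-O ABA shoots. For the 8 loci under 1 CPM the few counts limit what could be detected.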
